A study of Mus musculus with 64 samples.

Results

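A set of 10 heat shock genes was followed across 8 mouse pancreatic tumour lines grown alone or with fibroblasts. The 10 genes were taken by symbol from the table of gene counts, which holds 39017 genes: Hspa1a, Hspa1b, Hspa8, Hsph1, Hsp90aa1, Dnajb1, Hspb1, Bag3, Hspe1 and Hsf1. All 10 were found once and all 10 passed the filter on low counts. The set is mostly cytosolic chaperones, but Hspe1 encodes the co-chaperonin of the mitochondrial matrix and Hsf1 encodes a transcription factor, not a chaperone.

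The lines were 7 clones, named E, H and V and K, M, N and T, and a line called KPC1. The derivation of KPC1 is not given in the sources used here. Per the study's methods the clones came from pancreatic tumours of KPC mice, whose alleles include mutant Trp53 R172H and a Pdx1-driven Cre. The study's results describe the 7 clones as subclones of a polyclonal line from a single tumour, so they are not samples of separate tumours. The labels describe the strain background of all samples as mixed C57BL/6, and no age. Each line gave 4 libraries from mono-culture and 4 libraries of tumour cells recovered from co-culture with fibroblasts, 64 libraries in all. The co-culture lasted 48 h, and the tumour cells were then separated from the fibroblasts by flow sorting on their green fluorescent protein (GFP). The same growth text stands on the mono-culture samples, so whether those cells were sorted is not stated. An effect of co-culture and an effect of sorting on a co-culture library therefore cannot be told apart by these groups. The study placed E, H and V in its metabolic group 1 and K, M, N and T in group 2, and KPC1 in neither. Each clone is a single clonal line, and nothing in the labels says that the 4 libraries of a line came from separate cultures, so tests within a line measure the spread between libraries, which may be technical.

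The libraries held 11178721 to 21333683 counts each (median 15648010). The library most like each of the 64 was another library of the same line and culture in 64 of 64 cases. The fibroblast markers Postn, Pdpn, Fap and Dcn together were at 0 to 0.20 CPM (counts scaled to the size of the library) in the 32 mono-culture libraries and at 12.1 to 149 CPM in the 32 co-culture libraries. Of 20 fibroblast markers, 14 were called higher in co-culture over the lines, 1 lower and 5 not called; Thy1 and Lum were at 0 in every mono-culture library, and the sum of the list was 7042 to 21842 CPM in mono-culture and 7182 to 21010 CPM in co-culture libraries. The part of fibroblast RNA in the values below was not tested. As labelled for pancreatic tumour cells, Krt8, Krt18, Krt19 and Pdx1 were expressed in all lines, but Epcam was at 0.37 CPM or less in every line; of 14 epithelial and ductal markers 1 was called higher and 7 lower. Leukocyte markers (1 higher and 2 lower of 3 tested) and endothelial markers (1 higher and 1 lower of 3 tested) were mostly too low to test. In bulk RNA, a change in the number of cells of a type and a change in RNA per cell cannot be told apart.

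Heat shock proteins are chaperones: they bind unfolded segments of other proteins, hold them in solution and pass them to folding machines. HSF1 sits inactive in unstressed cells while chaperones occupy it, and when unfolded protein draws the chaperones away it forms trimers, binds repeats of the 5-base unit nGAAn in promoters and switches on HSP70, HSP40, HSP90, small HSP and BAG3 genes together. Some members are made at all times (Hspa8, Hspe1), and Hsp90aa1 is stress-responsive. Hspa1a, Hspa1b, Dnajb1, Hsph1, Hspb1 and Bag3 are heat-inducible genes. Such genes are used as a readout of acute stress, which includes the detachment and sorting of cells. Tumour cells often depend on both sets because they make protein fast and carry unstable mutant proteins.

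The units that HSF1 binds can be read in the promoters, and the stretches that hold them are shown for the members in which they were found, whether made at all times or inducible. RefSeq promoter windows (build GRCm38.p6, 250 bases before to 50 bases after a gene's start) were found for 7 of the 10 members, in 9 windows; Hspa8, Hsp90aa1 and Hsf1 had none. A pair of facing units, GAANNTTC or TTCNNGAA, each of which reads the same on both strands, was in a window of 6 of the 7 members. Among all 32851 windows of the same length, 15.1% held one. Runs of 3 alternating units, in which these pairs overlap by 1 unit, were in the windows of Hspe1 and Hsph1 and in 0.603% of all windows. In the stretches below, written 5′ to 3′ on the gene's strand, capitals mark the GAA and TTC units of the matched pairs. Such letters outside a matched pair are left in lower case.
Hspe1, chr1:55088039-55088096, plus strand: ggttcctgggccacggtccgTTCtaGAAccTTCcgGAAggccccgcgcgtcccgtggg
Hspb1, chr5:135887782-135887849, plus strand: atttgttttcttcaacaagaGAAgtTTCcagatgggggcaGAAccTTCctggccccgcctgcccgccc
Hspa1a, chr17:34972233-34972280, minus strand: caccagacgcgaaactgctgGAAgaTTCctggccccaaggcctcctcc
Hspa1b, chr17:34959315-34959362, minus strand: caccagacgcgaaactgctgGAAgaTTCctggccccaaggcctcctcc
Hsph1, chr5:149636351-149636380, minus strand: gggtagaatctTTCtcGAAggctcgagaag
Hsph1, chr5:149636287-149636308, minus strand: gctgcagaTTCtgGAAagTTCt
Bag3, chr7:128523614-128523632, plus strand: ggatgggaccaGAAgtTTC
The first match of Hspe1 began 89 bases before its start, those of Hspb1 began 117 and 97 bases before, and those of Hspa1a and Hspa1b began 104 bases before. In Hsph1 one match began 33 bases before the start and the run of 3 units lay after it, as did the single match of Bag3. The windows of Hspa1a and Hspa1b differed at 4 of 300 bases, and the stretch shown is identical in both. Neither Dnajb1 window held a match, which says only that these letters were not in those windows.

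The members differed widely in level, and because reads scale with gene length they are compared here in the deposited RPKM (reads scaled to gene length and library size), as the median over the 8 lines in mono-culture. Hspa8, the constitutive cytosolic HSP70, was the most abundant at 182 RPKM. Hsp90aa1, the stress-responsive cytosolic HSP90, was at 43.7 RPKM and Hspe1 at 41.9 RPKM, followed by the co-chaperone gene Bag3 at 25.3 RPKM and Hsf1 at 23.01 RPKM. Hsph1, the HSP110 that exchanges nucleotide on HSP70, was at 10.6 RPKM, and Dnajb1, the HSP40 that feeds clients to HSP70, was at 10.3 RPKM. The lowest were Hspa1b at 3.11 RPKM, Hspb1 (the small heat shock protein HSP25) at 2.53 RPKM and Hspa1a at 0.0431 RPKM. These neighbours in the order (Hsp90aa1 and Hspe1, Bag3 and Hsf1, Hsph1 and Dnajb1, Hspa1b and Hspb1) had overlapping ranges over the lines. Values within one gene are given below as CPM scaled by the trimmed mean of M values (TMM). The unit is counts, so shared sequence matters: of the 76-base windows of each annotated transcript (GENCODE M21), 54% of Hspa1a and 55.6% of Hspa1b also matched another gene, chiefly each other, as did 67.7% of Hspa8, 52.9% of Hsp90aa1, 47.1% of Hspb1 and 23.5% of Hspe1, chiefly processed copies. None of the windows of Hsph1, Dnajb1, Bag3 or Hsf1 did. How the counting treated such reads is not given in the sources used here, so the levels of the first 6 are uncertain by that much.

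Across the 8 lines, co-culture shifted the members in both directions. For this comparison the 4 libraries of each line and culture were summed. Culture was tested with line as a covariate by the edgeR quasi-likelihood test, with Benjamini-Hochberg adjustment over all 16246 genes. A call was an adjusted p under 0.1, the threshold the study used for a DESeq2 comparison of its metabolic groups, not of cultures. Hspe1, Hsp90aa1, Hspa8, Hsf1 and Hsph1 rose, Bag3 fell, and Hspa1a, Hspa1b, Dnajb1 and Hspb1 were not called: 5 higher, 1 lower and 4 not called of 10. Of all genes tested, 26.8% were called higher and 25.2% lower, so the count higher is above the background share and the count lower below it, in a list of only 10. The median log2 difference was 0.29 over the members and 0.01 over all genes tested.

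**Figure D1:**
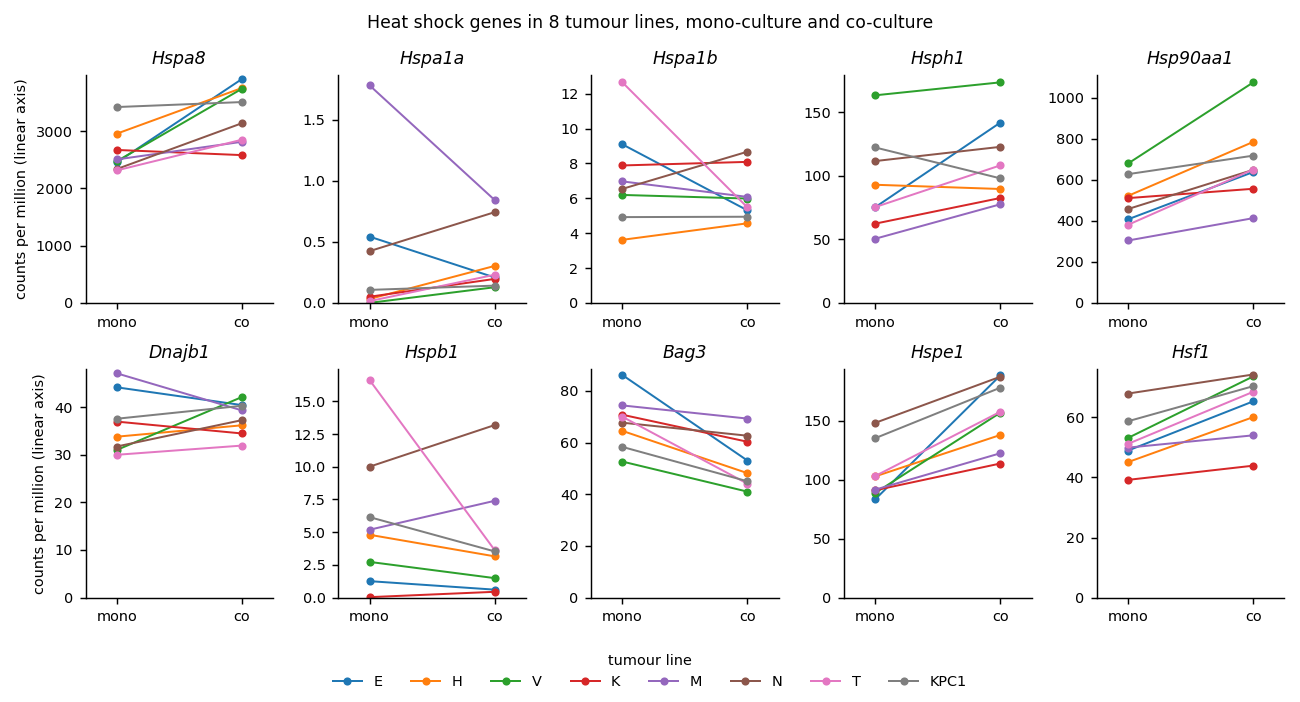
Level of each of the 10 genes in CPM (linear axis from 0) in mono-culture and co-culture, with 1 point per line and culture (4 libraries summed) and a line joining the cultures of a tumour line. Hspe1, Hsp90aa1 and Hsf1 were higher in co-culture in 8 of 8 lines and Bag3 was lower in 8 of 8, while Hspa1b and Dnajb1 went up in some lines and down in others.

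Hspe1 rose the most of the called members. Together with HSP60, the product of Hspd1, it forms the barrel that folds proteins imported into mitochondria. It lies on chromosome 1 (GRCm38, 55088132 to 55091307, plus strand) and overlaps Hspd1 on the other strand; whether strand was used in counting is not stated. Its level over the lines was 83.4 to 148 CPM in mono-culture (median 97.2) and 114 to 188 CPM in co-culture (median 157), a mean of 105.5 ± 23.6 against 155.2 ± 28.7 CPM (SD, n = 8 lines). The log2 difference was 0.56 (SE 0.10, adjusted p = 0.00237 by edgeR), and 8 of 8 lines were higher. In clone E, where the difference was largest, the 4 mono-culture libraries stood at 91.5, 92.9, 73.6 and 77.2 CPM and the 4 co-culture libraries at 221, 162, 134 and 230 CPM. In clone V they stood at 90.5, 102, 84.5 and 77.9 CPM against 202, 148, 144 and 124 CPM. All 4 co-culture libraries lay above all 4 mono-culture libraries in 7 of 8 lines, the exception being KPC1, where co-culture replicate 1 (126 CPM) overlapped the mono-culture range of 124 to 153 CPM.

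Hsp90aa1 rose by a similar amount. HSP90 finishes the folding of kinases and steroid receptors. Its level ran from 303.9 to 679 CPM in mono-culture and from 413 to 1074 CPM in co-culture (mean 485.9 ± 125.6 against 684.9 ± 192.0 CPM, SD, n = 8 lines), with a log2 difference of 0.49 (SE 0.08, adjusted p = 0.00186 by edgeR) and 8 of 8 lines higher. Clone T had the largest difference within a line (log2 0.77, SE 0.12). Clone E had 450.7, 388, 405.2 and 374 CPM in mono-culture against 696, 576, 631.5 and 625.5 CPM in co-culture. Clone V had the highest level in both cultures, with 661.6, 727, 683 and 657 CPM against 1158, 1039, 955 and 1053 CPM. In clone K the libraries of each culture split into high and low values, 626, 418, 607 and 399 CPM against 632, 517, 604 and 488 CPM, and the cultures overlapped.

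Hspa8, which binds nascent chains on the ribosome and uncoats clathrin vesicles, rose over the lines, with 7 of 8 higher by the sums of their libraries. In KPC1 the sums differed by 1.03-fold and the fit within the line gave a log2 difference of -0.03. Its mean was 2640 ± 375.5 CPM in mono-culture and 3285 ± 506 CPM in co-culture (SD, n = 8 lines), a log2 difference of 0.31 (SE 0.09, adjusted p = 0.0159 by edgeR). Clone E went from 2579, 2693, 2363 and 2220 CPM to 4466, 3923, 3321 and 3773 CPM. Clone K had 2738, 2635, 2869 and 2526 CPM in mono-culture and 3024, 2625, 2453 and 2313 CPM in co-culture, which overlap. The gene hosts the small nucleolar RNAs Snord14c, Snord14d and Snord14e in its introns on the same strand.

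Hsf1, the master regulator of the response, rose over the lines. It lies on chromosome 15 (76477422 to 76501913, plus strand), 144 bases from Bop1. Its mean was 51.8 ± 8.67 CPM in mono-culture and 63.8 ± 10.6 CPM in co-culture (SD, n = 8 lines), a log2 difference of 0.30 (SE 0.06, adjusted p = 0.00465 by edgeR), with 8 of 8 lines higher. HSF1 is controlled mainly after it is made, by chaperone binding, trimerisation and phosphorylation, none of which RNA counts measure. Clone V had 56.02, 52.2, 51.9 and 55.1 CPM in mono-culture and 63.6, 73.3, 80.9 and 69.3 CPM in co-culture, without overlap. Within lines the log2 difference ran from 0.10 in N to 0.42 in V, and it was called in E, H, V, T and KPC1 but not in K, M or N.

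Hsph1 was called only narrowly. Its mean was 94.3 ± 36.9 CPM in mono-culture and 111.9 ± 32.9 CPM in co-culture (SD, n = 8 lines), and the log2 difference was 0.29 (SE 0.12, adjusted p = 0.0852 by edgeR), with 6 of 8 lines higher. The call was lost when any one of E, V, K, M, N or T was left out (lowest log2 difference 0.19, adjusted p = 0.218, without clone E). Clone E rose from 84.8, 69.0, 81.5 and 62.1 CPM to 164, 118.5, 141 and 139.7 CPM. KPC1 went the other way, from 123.5, 136, 136 and 94.6 CPM to 87.0, 84.3, 96.2 and 114 CPM.

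Bag3, a target of the same factor, fell. BAG3 couples HSP70 to the autophagic removal of damaged protein and is among the genes most readily induced by heat and proteasome stress. It lies on chromosome 7 (128523616 to 128546981, plus strand) and overlaps the unclassified gene 2610306O10Rik on the same strand. Its mean was 68.1 ± 10.2 CPM in mono-culture and 52.9 ± 10.2 CPM in co-culture (SD, n = 8 lines), a log2 difference of -0.37 (SE 0.08, adjusted p = 0.00536 by edgeR), with 8 of 8 lines lower. Clone E had 89.7, 82.7, 83.5 and 88.4 CPM in mono-culture and 47.4, 70.2, 51.1 and 41.7 CPM in co-culture. Clone T had 67.6, 68.1, 78.0 and 68.8 CPM against 48.4, 36.7, 42.4 and 49.8 CPM. The cultures did not overlap in these clones or in H, whereas in M the difference was small, with 74.3, 77.3, 72.3 and 75.1 CPM against 72.6, 70.8, 62.8 and 70.8 CPM.

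**Figure D2:**
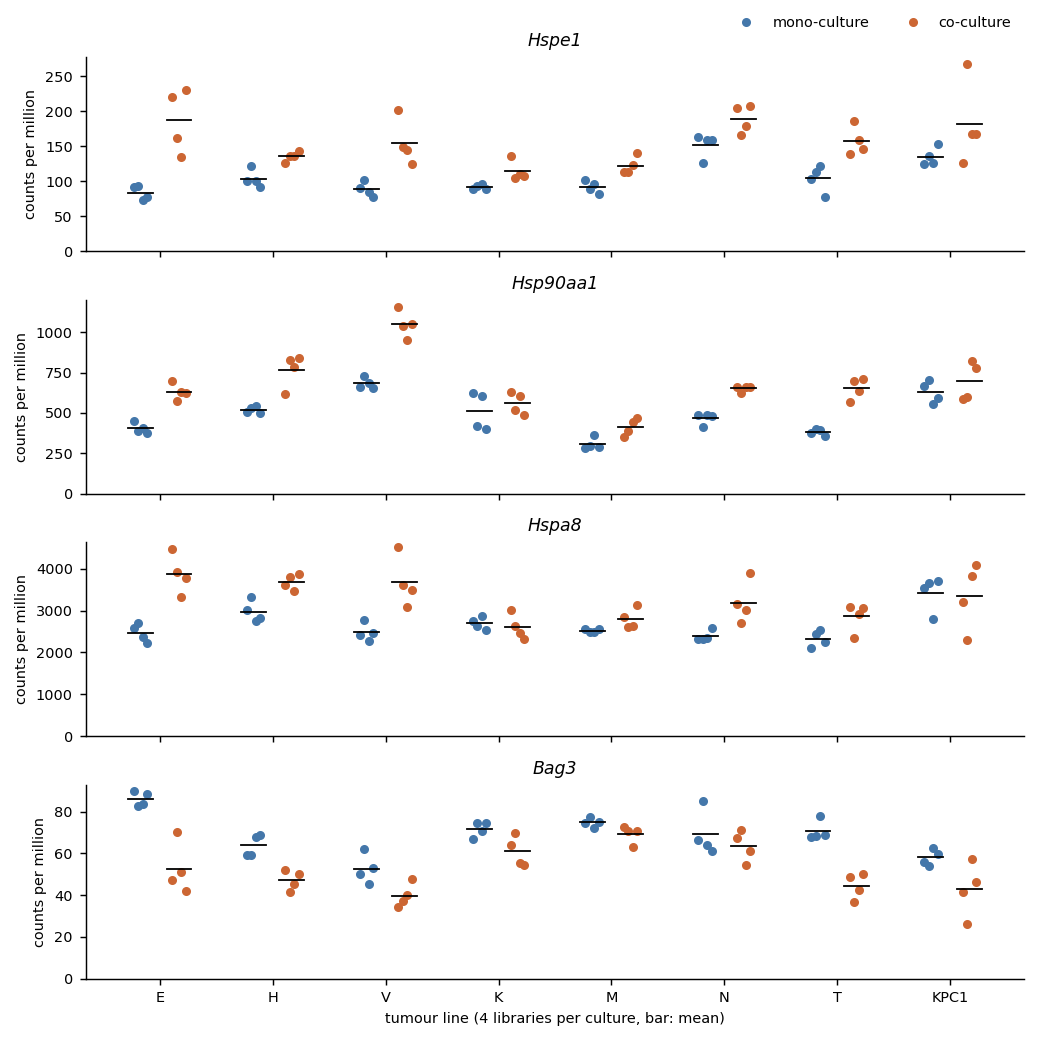
Values in CPM (linear axes from 0) of Hspe1, Hsp90aa1, Hspa8 and Bag3 in each of the 64 libraries, by tumour line and culture, with a bar at the mean of 4 libraries. The co-culture libraries of clone E lie above its mono-culture libraries for the upper 3 genes and below them for Bag3, and in clone K the cultures overlap for all but Hspe1.

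Neither gene of the inducible HSP70 pair was called over the lines. Hspa1b and Hspa1a encode nearly identical proteins from neighbouring single-exon genes on chromosome 17, separated by 9951 bases. Hspa1b was at 3.62 to 12.7 CPM in mono-culture and 4.57 to 8.68 CPM in co-culture, with 4 lines higher, 4 lower and a log2 difference of -0.18 (SE 0.18, adjusted p = 0.446 by edgeR). In clone T it fell from 11.7, 12.8, 12.4 and 14.0 CPM to 5.61, 4.11, 4.68 and 7.85 CPM, a log2 difference of -1.20 (SE 0.23, adjusted p = 1.504e-05 by edgeR within the line). Clone E fell as well, by 0.77 on the log2 scale (adjusted p = 0.00405), and the other 6 lines were not called. Hspa1a was near the limit of detection. The 4 mono-culture libraries together held 0 counts in V, 1 in T, 2 in H, 3 in K and 7 in KPC1, against 23 in N, 38 in E and 115 in M. The co-culture sums were 8 counts in V, 14 in T, 21 in H, 12 in K, 8 in KPC1, 47 in N, 12 in E and 46 in M. The 2 lines with the most Hspa1a in mono-culture therefore had less of it in co-culture and the other 6 had more. Within lines it was called lower in E (adjusted p = 0.0632 by edgeR) and M (adjusted p = 0.0613) and higher in H, V and T. In H, V and T its highest co-culture library was replicate 4 (0.664, 0.340 and 0.436 CPM). That library also had the most Postn, Pdpn, Fap and Dcn of its line (89.5, 99.1 and 98.3 CPM). In M and KPC1 the library highest in Hspa1a was not the one highest in these markers. Whether fibroblast RNA gave these Hspa1a counts was not tested. No fold is given against sums of 3 counts or fewer, and the fitted log2 difference over the lines of 0.79 (SE 0.60, adjusted p = 0.309 by edgeR) leans on those sums. With Hspa1a and Hspa1b counted as 1 gene the pair was still not called.

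Dnajb1 and Hspb1 were not called over the lines. Dnajb1 was nearly level, with a mean of 36.5 ± 6.27 CPM in mono-culture and 37.7 ± 3.43 CPM in co-culture (SD, n = 8 lines) and a log2 difference of 0.06 (SE 0.08, adjusted p = 0.577 by edgeR). Clone V was the only line in which it was called, at 32.5, 33.2, 29.4 and 29.6 CPM against 47.4, 39.9, 36.1 and 41.6 CPM. Hspb1 had the largest F of the members in the test between lines in mono-culture (41.4, 7 coefficients). In mono-culture it was at 16.6 CPM in T, 10.01 CPM in N, 6.15 CPM in KPC1, 5.19 CPM in M, 4.80 CPM in H, 2.73 CPM in V and 1.26 CPM in E, while the 4 libraries of K together held 2 counts. Its co-culture value was lower in 5 lines and higher in 3. In T it fell from 16.5, 13.4, 30.3 and 8.37 CPM to 6.13, 2.02, 2.52 and 3.996 CPM (log2 difference -2.22, SE 0.34, adjusted p = 1.892e-07 by edgeR within the line), with no overlap. It was also called lower in E (-1.10), V (-0.94) and KPC1 (-0.88). In K it was called higher, from 2 counts in all to 27 counts, 0.0666 to 0.852 CPM a library. The 4 co-culture libraries of K had Hspb1 at 0.0666, 0.209, 0.852 and 0.619 CPM. In the same order, Postn, Pdpn, Fap and Dcn together were at 24.7, 31.8, 149 and 145 CPM. Whether fibroblast RNA gave these Hspb1 counts was not tested.

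Within single lines the responses were uneven. All 64 libraries were fitted with 1 mean per line and culture, and co-culture was tested against mono-culture in each line. Of the 80 pairs of a member and a line, 31 were called higher, 14 lower and 35 not called. The pairs called higher, here and by line below, include Hspa1a in H, V and T and Hspb1 in K. Their mono-culture sums were only 2, 0, 1 and 2 counts. Over all genes and lines, 23.7% of tests were called higher and 21.9% lower. Clones V and T had the most members called higher, 6 each, followed by E and H with 5, and K, N and KPC1 had 2 each. Clone E had 4 members called lower, and K and N had none. The share of all genes called in each single line is not given here, so these counts do not rank the lines by a response of the members. All 4 co-culture libraries lay above all 4 mono-culture libraries in 26 pairs and below in 9, and the cultures overlapped in 45. Such overlap was counted for the members only. Whether these counts differ from those of other genes was not tested.

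**Figure D3:**
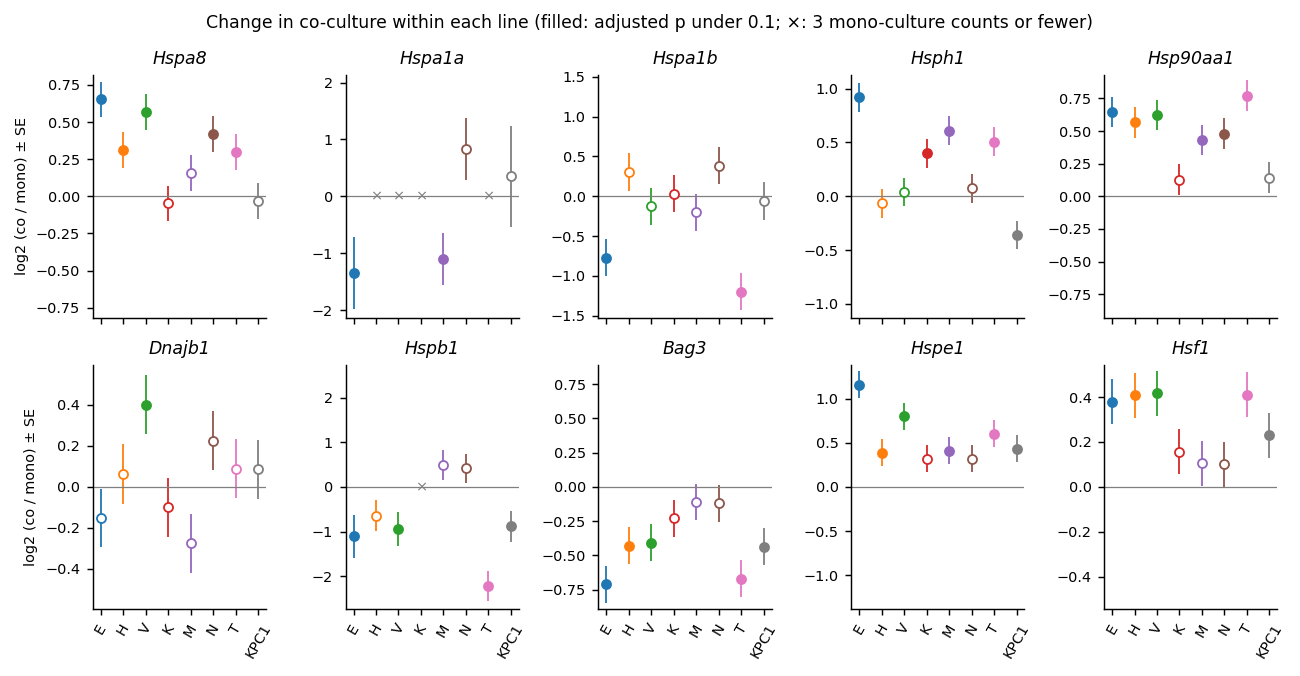
Log2 difference between co-culture and mono-culture within each line, with its standard error from the fit over 64 libraries; filled points were called at an adjusted p under 0.1, and crosses mark lines with 3 mono-culture counts or fewer, for which no value is drawn. Hspe1 and Hsp90aa1 are above 0 and Bag3 below 0 in every line, and clones K, M and N sit nearest to 0 for Bag3.

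A test of the difference in response between the 8 lines (interaction of line and culture, 7 coefficients) called 9 of 10 members. The share over all genes tested was 71.3%. Hsph1 and Hspb1 had the smallest adjusted p (1.236e-06 and 2.231e-06 by edgeR), and Hsf1, at the threshold, was not called (adjusted p = 0.1001). By DESeq2, and with the series of sample numbers in the labels as a covariate, all 10 members were called. In mono-culture all 10 members differed between the lines, as did 95.1% of all genes tested. Hsph1, for example, was at 163.5 CPM in V and 50.5 CPM in M, and the 4 libraries of V (157 to 171 CPM) and M (46.7 to 55.7 CPM) were far apart.

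Group 1 and group 2 did not separate the members. In mono-culture (3 clones against 4) none of the 10 was called, and 0% of all 14829 genes were. An unadjusted p under 0.05 was found for 766 genes, near the share that this cut gives by chance, and for no member. The study did select genes between these groups, by DESeq2 at an adjusted p under 0.1. The largest differences relative to their errors were those of Hsph1 (log2 0.55 higher in group 1, SE 0.36, adjusted p = 0.888 by edgeR) and Hsp90aa1 (0.37 higher, SE 0.25, adjusted p = 0.888). The response to co-culture differed between the groups for none of the members and for 0.00618% of all 16172 genes (1 gene), with 1214 genes and no member at an unadjusted p under 0.05. The difference in response was 0.38 on the log2 scale for Hspe1, with group 1 higher (SE 0.18, adjusted p = 0.685 by edgeR), and 0.33 for Hspa8 (SE 0.15, adjusted p = 0.683), and neither passed the test. DESeq2 called no member in either comparison. With 3 clones against 4 these errors leave room for differences of the sizes given.

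The wider chaperone families were read from lists of genes, again over the 8 lines. Without the members, the lists of cytosolic and mitochondrial chaperones held 64 tested genes, including some of the endoplasmic reticulum, such as Sil1 and Dnajb14. Of these 64 genes, 36 were called higher, 8 lower and 20 not called, with a median log2 difference of 0.23. These counts stand beside the 26.8% higher and 25.2% lower of all genes. The counts of single lists that follow include the members that belong to them. The HSP70 and HSP110 list, with 4 members in it, had 5 higher and 1 lower of 10, its median 0.29. Hspa4 (log2 0.48, adjusted p = 0.00253), an HSP110 relative, Hspa14 (0.40, adjusted p = 0.00166), which works on the ribosome, and Hspa4l (0.28, adjusted p = 0.0180) rose, and the testis-type Hspa1l fell from a low level (-0.47, adjusted p = 0.0573).

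The list of HSP90 and its co-chaperones had 9 higher, 0 lower and 6 not called of 15. Ptges3, which encodes the p23 co-chaperone, rose by 0.73 on the log2 scale (adjusted p = 0.00133), Stip1, the adaptor that hands clients from HSP70 to HSP90, by 0.42 (adjusted p = 0.00207), Ppid, the cyclophilin CYP40, by 0.79 (adjusted p = 0.00243) and Fkbp4, an immunophilin of steroid receptors, by 0.34 (adjusted p = 0.00244). All of these were higher in 8 of 8 lines. By contrast the HSP40 list was divided, 4 higher and 4 lower of 13. Dnajc2, the ribosome-bound zuotin, rose by 0.73 (adjusted p = 0.00186) and Dnaja2 by 0.35 (adjusted p = 0.00246), while Dnajb14, which sits in the endoplasmic reticulum (ER) membrane, fell by 0.86 on the log2 scale (adjusted p = 0.00251) and Dnajc7 by 0.30 (adjusted p = 0.00652).

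Of the 6 small HSP genes tested, 1 rose and 1 fell. Hspb8, the partner of BAG3, was at 0 to 0.0151 CPM in the mono-culture sums and 1.90 to 3.64 CPM in co-culture, the same kind of step from near 0 as the fibroblast markers made. Hspb6 fell by 0.53 on the log2 scale (adjusted p = 0.0220). The list of BAG proteins and nucleotide exchange factors had 5 higher and 2 lower of 10: Sil1 of the ER (0.69, adjusted p = 0.00207) and the mitochondrial Grpel1 (0.38, adjusted p = 0.00409) rose, and Bag5 fell with Bag3 (-0.84, adjusted p = 0.0275). Among heat shock factors and their regulators 2 rose and 3 fell of 9, with Hsf2 higher by 0.54 (adjusted p = 0.00266) and the acetyltransferase Ep300 lower by 0.32 (log2 -0.32, adjusted p = 0.00244). Of 10 other heat-inducible genes 6 rose, among them Gadd45b (1.43, adjusted p = 0.00335), Chordc1 (0.42, adjusted p = 0.00386) and Hmox1 (0.93, adjusted p = 0.0276), and 1 fell.

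The chaperonin and organelle lists also had more genes called higher than lower. All 8 subunits of TRiC, the cytosolic chaperonin that folds actin and tubulin, rose, with a median of 0.45 and Cct8 (0.52) and Cct2 (0.57) having the smallest p (adjusted p = 0.00133 for each by edgeR). Of 11 mitochondrial chaperones and proteases 8 rose and 1 fell, with a median of 0.53. Hspd1, the partner and neighbour of Hspe1, rose by 0.57 (adjusted p = 0.00107), Hspa9, the mitochondrial HSP70, by 0.65 (adjusted p = 0.00140), Clpb by 0.53 (adjusted p = 0.00116) and Htra2 by 0.78 (adjusted p = 0.00144). Of 15 ER chaperones 11 rose and 1 fell, with a median of 0.43; Hyou1 rose by 0.80 (adjusted p = 0.00173) and Pdia4 by 0.46 (adjusted p = 0.000629).

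**Figure D4:**
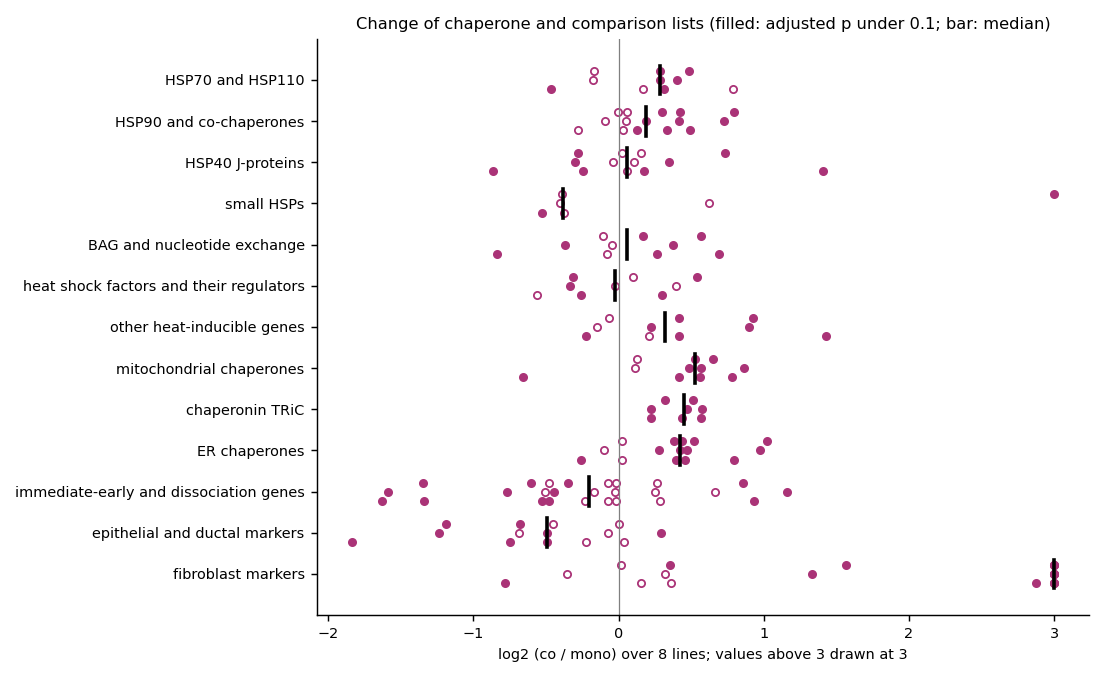
Log2 difference between co-culture and mono-culture over 8 lines for each gene of 13 lists (1 point per gene, filled where the adjusted p was under 0.1, bar at the list's median; values above 3 are drawn at 3, among them genes near 0 in mono-culture). All points of the TRiC list lie above 0, and most immediate-early genes that were called lie below 0.

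Genes that mark the handling of cells were set beside the members, since detaching and sorting cells can induce both. Of 26 immediate-early and dissociation genes tested, 3 were called higher in co-culture, 10 lower and 13 not called, with a median log2 difference of -0.20. Fos (-1.59, adjusted p = 0.00274), Fosb (-1.34, adjusted p = 0.00244), Btg2 (-1.63, adjusted p = 0.00300) and Ier2 (-0.77, adjusted p = 0.00370) fell, and Myc (0.86, adjusted p = 0.000578), Fosl1 (1.16, adjusted p = 0.00109) and Ppp1r15a (0.93, adjusted p = 0.0609) rose. The summed level of the list was 2295 to 8683 CPM in mono-culture libraries (median 3599) and 2359 to 6085 CPM in co-culture libraries (median 3611). These values do not measure the sort itself, because the sort state of the mono-cultures is not given.

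Handling genes and Dnajb1 were high in the same libraries of clone M. Mono-culture replicates 3 and 4 had Dnajb1 at 63.5 and 61.4 CPM, and replicates 1 and 2 had it at 32.4 and 32.9 CPM. The summed handling list stood at 8571 and 8683 CPM in the former and at 3964 and 3093 CPM in the latter. Atf3, a stress-induced factor chosen after its values were seen, was at 58.9 and 50.7 CPM against 4.12 and 4.05 CPM. The co-culture libraries of M split by the same numbers, with Dnajb1 at 41.1 and 51.4 CPM in replicates 3 and 4 and at 33.9 and 30.8 CPM in replicates 1 and 2, and Atf3 at 26.7 and 24.6 CPM against 3.38 and 4.13 CPM. Hspa1b did not follow: it was at 6.59, 7.52, 6.96 and 6.99 CPM in the 4 mono-culture libraries of M. Other members were higher in replicates 3 and 4 in one culture only. In mono-culture these were Hspa1a (2.23 and 2.01 against 1.59 and 1.35 CPM), Hspb1 (6.76 and 5.29 against 4.18 and 4.76 CPM) and, by less, Hsf1. In co-culture they were Hsph1 (88.3 and 82.9 against 68.5 and 70.8 CPM), Hsp90aa1 (445 and 471 against 349 and 388 CPM) and Hspe1 (123 and 141 against 113 and 113 CPM), while Bag3 was lower there. In replicates 1 and 2 alone, Dnajb1 in M was about equal in both cultures. This split of the replicates was read from the same values. Whether handling moved Dnajb1 was not tested.

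Over the 16 groups of 4 libraries, the library with the highest handling sum also had the highest Dnajb1 in 6 groups, the highest Hsph1 in 6, the highest Hspa1b in 3 and the highest Bag3 in 0, and the median over all other genes tested was 4. The library with the lowest handling sum had the lowest Hspa8 in 8 groups, the lowest Bag3 and Hsph1 in 6 each and the lowest Dnajb1 in 4, where the median was also 4. By line, the handling sum was higher in mono-culture in E (5681 against 3227 CPM, means of 4 libraries), K, M and T. In H, V, N and KPC1 it was higher in co-culture. Bag3 was lower and Hspe1 higher in co-culture in all 8. Within the handling list, Fos, Fosb, Btg2 and Ier2 were higher in co-culture in 0 of 8 lines, and Myc and Fosl1 in 8 of 8. Whether handling moved Bag3 or Hspe1 was not tested.

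**Figure D5:**
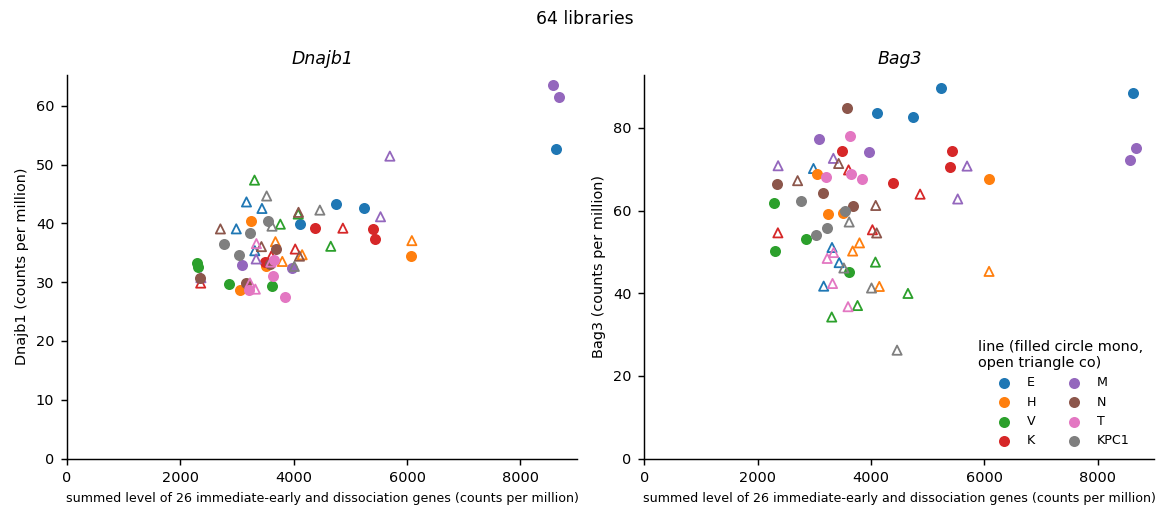
Dnajb1 and Bag3 in CPM (vertical, linear from 0) against the summed level of 26 immediate-early and dissociation genes in CPM (horizontal, linear from 0) in 64 libraries, with colour for line, filled circles for mono-culture and open triangles for co-culture. Mono-culture replicates 3 and 4 of clone M and replicate 4 of clone E stand apart at the right; they have the 3 highest Dnajb1 values, while their Bag3 (72.3, 75.1 and 88.4 CPM) is no higher than the highest of the other mono-culture libraries of the same clone.

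Genes with the pattern most like the members over the 16 sums are given as a description, since the sums share lines and a culture effect that moved many genes. For Hspe1 they included Cacybp (Pearson r = 0.962), Rrp9 (0.953), Klra2 (0.946) and Nop58 (0.944), of which Rrp9 and Nop58 encode nucleolar proteins of ribosomal RNA processing. Among the members, Hspe1 ran closest to Hsf1 (r = 0.860, 16 sums) and opposite to Bag3 (r = -0.635). Hsp90aa1 and Bag3 were the most opposed pair (r = -0.874), and Hsp90aa1 and Hsph1 the most alike after Hspe1 and Hsf1 (r = 0.777). For the mean of Hspa1a, Hspa1b, Dnajb1, Hsph1, Hspb1 and Bag3 the most similar genes included Nudt22 (0.880), Lmf1 (0.873), Sox13 (0.868) and Acacb (0.862). That mean was taken on log2 values without scaling and contains each of the 6 genes. It mostly followed Hspb1 (r = 0.760) and Hspa1a (0.737), which had sums of 3 counts or fewer in 1 or more lines. With Hsph1 its r was -0.0913, so the mean does not stand for the 6 genes together. Between pairs of the 6, r ran from -0.662 (Hsph1 and Bag3) to 0.624 (Hspa1a and Dnajb1).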

How the data were processed

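The authors deposited whole read counts per gene for each library and a table of RPKM values. Per the labels, polyA libraries were made with a strand-specific kit, sequenced paired-end at 76 bases and processed with featureCounts and edgeR on mm10. The aligner, annotation, strand setting, treatment of reads with several matches and the scaling of the deposited RPKM values are not given in the sources used here.

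From the counts, CPM were computed with TMM scaling, and tests were run in edgeR 4.0.16 (R 4.3.3): quasi-likelihood, filterByExpr, Benjamini-Hochberg over all genes, calls at an adjusted p under 0.1. Counts were summed per line and culture (16 sums, line as covariate) for statements over lines, and all 64 libraries were fitted for statements within lines. The scripts were tested on simulated data. Alternatives were RLE scaling, DESeq2 1.42.0, limma 3.58.1 on log2(RPKM + 1) and log2(RPKM + 0.1), no filter, a threshold of 0.05, no line term, leaving out lines or replicates, the replicate block, sample-number series, and Hspa1a with Hspa1b as 1 gene. Leaving out KPC1 co-culture replicate 2, the shallowest library, was chosen after seeing the data.

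Named genes were the 10 members and, in each list, at most 4 called genes per direction with the smallest p, plus the 5 genes most correlated with each of 2 patterns; a few names and alleles that this rule or the labels give are not reported here. The members and lists were chosen with earlier results of these data known. Positions are from GENCODE M21 (GRCm38, the same assembly as mm10) and promoters from RefSeq. Intervals and floors are not given for CPM, and the floor for a fold was 3 counts.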

Additional observations from a re-analysis of the deposited data

Results flagged for a closer look

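The co-culture response differed between the 8 lines for 9 members by the interaction test of edgeR, with adjusted p of 0.0001728 for Hspa1a, 0.0003969 for Hspa1b, 0.001389 for Hspa8, 1.236e-06 for Hsph1, 0.00354 for Hsp90aa1, 0.06702 for Dnajb1, 2.231e-06 for Hspb1, 0.02223 for Bag3 and 0.005798 for Hspe1. For Hspa1a the lines with 3 mono-culture counts or fewer, and for Hspb1 clone K with 2, take part in that test. In Hsph1 clone E rose and KPC1 fell, in Hspb1 clone T fell, and in Hspa1b clones E and T fell.

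Of 180 groups of 4 libraries or 8 lines examined for a value far from the rest, 10 had one, and chance alone gives about 9. In mono-cultured clone M, Hspa1a stood at 1.78 CPM, against 0 to 0.54 CPM in the other 7 lines. In clone N, mono-culture replicate 2 was low in Hsp90aa1 (415 CPM, the others 482 to 488 CPM) and in Hspe1 (125 CPM, the others 158.5 to 163 CPM), co-culture replicate 2 was low in Hsp90aa1 (625.2 CPM, the others 658 to 663 CPM), and mono-culture replicate 4 was high in Hspa8 (2572 CPM, the others 2309 to 2332 CPM). In clone M, mono-culture replicate 3 was high in Hsp90aa1 (363 CPM, the others 280.4 to 292 CPM) and co-culture replicate 3 was high in Hsf1 (60.6 CPM, the others 51.1 to 52.6 CPM). Mono-culture replicate 3 of clone T was high in Bag3 (78.0 CPM, the others 67.6 to 68.8 CPM). The flags of Hspa1a in mono-culture replicate 1 of clone T (0.0584 CPM) and of Hspb1 in mono-culture replicate 2 of clone K (0.138 CPM) rest on 1 and 2 counts against 0.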

How the results depend on the processing

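Hspe1 was called higher under every alternative run, including the fit with no line term. Hsp90aa1, Hspa8 and Hsf1 (higher) and Bag3 (lower) were called under every alternative except that fit, which left 1 member higher and 0 lower; there Hsp90aa1 was at 0.48 (adjusted p = 0.146), Hspa8 at 0.30 (0.135), Hsf1 at 0.28 (0.187) and Bag3 at -0.38 (0.110), close to their reported values, since only the spread between lines was added. Hspa1a, not called by edgeR, turned to -0.0916 without the line term and was called higher by DESeq2 (1.29, adjusted p = 0.0964), which made 6 members higher. Dnajb1, not called, was at -0.005259 to 0.09439 with 1 line left out, below 0 without clone V. Hsph1 was not called without a filter, without the line term, without any one of clones E, V, K, M, N or T, without replicate 1 or 4, in the sample-number series that covered both cultures in 7 lines, by limma on RPKM or at a threshold of 0.05, so 4 members rather than 5 were higher there (1 without the line term). Leaving out each replicate number in turn gave 22 to 32 pairs of a member and a line higher and 9 to 13 lower, the lowest count lower without replicate 3. The number of members whose response differed between lines was 7 to 9 with a replicate number left out (7 without replicate 4), 8 at a threshold of 0.05 and 10 by DESeq2 or with the sample-number series as a covariate. Group 1 and group 2 separated 0 members under every alternative run, DESeq2 included. RLE scaling moved the median of all genes from 0.00598 to -0.00411.

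With the replicate block, which pairs libraries that share a number within a line, 34 pairs were higher, 16 lower and 9 members differed in response between lines; the fits over lines use sums of libraries, to which the block does not apply. The labels do not say that a number marks a shared batch. The deviations of same-numbered libraries correlated at -0.101 to 0.408, with 22 of 32 pairs over 0.1 (all 4 in M and in N), and 23 of 32 mono-culture libraries correlated best with their own number, a hint of pairing from the data in some lines, not from the design. Without KPC1 co-culture replicate 2 the counts were 30 higher and 13 lower. Depth limits Hspa1a, with 0 to 38 mono-culture counts in 7 of 8 lines, and Hspb1 in K.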
